A study of Mus musculus with 12 samples.

Results

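A set of 10 purinergic genes was followed in bone-marrow-derived macrophages of wild-type (WT) and miR-210 knockout (KO) mice: the ATP-gated channel genes P2rx4 and P2rx7, the nucleotide receptor genes P2ry2, P2ry6, P2ry12 and P2ry14, the adenosine receptor genes Adora2a, Adora2b and Adora3, and Entpd1, which encodes the ectonucleotidase CD39. They were found by matching the Ensembl identifiers of the deposited count tables to mouse gene symbols, and all 10 were present among the 56941 genes. Monocytes, left unlabelled while antibodies and magnetic beads removed other bone marrow cells, grew for 7 days in serum and L929 fibroblast-conditioned medium, a source of M-CSF, and gave unpolarized M0 macrophages. M2 macrophages received 20 ng/mL IL-4 for a further 72 hours, while M0 wells were kept alongside without IL-4. Each of the 4 groups (WT M0, KO M0, WT M2 and KO M2) had 3 RNA-seq libraries. All mice were of the C57BL/6J strain, and the KO animals and WT controls came from breeding mice heterozygous for a deletion made with a floxed miR-210 allele and Gata-1 Cre, and the deleted allele itself was inherited. The sources do not say that the 3 cultures of a group came from separate animals, and p-values then measure only the spread between these samples, which may be technical.

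Cells release ATP, UTP and other nucleotides when they are stressed or stimulated, and neighbouring cells read them through P2X channels, which open on ATP, and P2Y receptors, which couple to G proteins and differ in the nucleotide they prefer. CD39 on the cell surface removes phosphates from ATP and ADP, CD73 (gene Nt5e) turns the resulting AMP into adenosine, and adenosine acts on its own receptors, of which those encoded by Adora2a and Adora2b raise cyclic AMP and restrain inflammatory macrophage responses. In macrophages P2X7 is best known for its part in inflammasome activation, and P2Y12 is known as an ADP receptor of platelets and of microglia, the macrophages of the brain.

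The sequences shown here are the mature miR-210-3p, which the KO mice lack, and the stretches upstream of the 3 members with the largest changes upon IL-4. The miRNA sequence is from RefSeq, with the seed (bases 2 to 8) in capitals. The upstream stretches are the 250 bases before the annotated start of the canonical GENCODE transcript in GRCm39, written 5′ to 3′ on the strand of the gene: chr3:59170430-59170679 (minus strand) for P2ry12, chr10:75152310-75152559 (plus strand) for Adora2a and chr11:62139554-62139803 (plus strand) for Adora2b. Capitals there mark the motif matches described in the next paragraph.
mmu-miR-210-3p: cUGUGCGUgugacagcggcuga
P2ry12: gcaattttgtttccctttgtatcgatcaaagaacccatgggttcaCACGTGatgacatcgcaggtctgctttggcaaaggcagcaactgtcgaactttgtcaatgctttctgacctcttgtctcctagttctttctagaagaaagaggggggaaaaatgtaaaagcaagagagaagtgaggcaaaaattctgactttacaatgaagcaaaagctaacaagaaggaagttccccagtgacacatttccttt
Adora2a: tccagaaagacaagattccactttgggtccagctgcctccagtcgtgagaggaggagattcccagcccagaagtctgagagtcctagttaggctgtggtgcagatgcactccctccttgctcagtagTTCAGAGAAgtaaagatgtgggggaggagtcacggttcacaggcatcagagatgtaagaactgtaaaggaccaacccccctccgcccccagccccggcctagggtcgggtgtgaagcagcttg
Adora2b: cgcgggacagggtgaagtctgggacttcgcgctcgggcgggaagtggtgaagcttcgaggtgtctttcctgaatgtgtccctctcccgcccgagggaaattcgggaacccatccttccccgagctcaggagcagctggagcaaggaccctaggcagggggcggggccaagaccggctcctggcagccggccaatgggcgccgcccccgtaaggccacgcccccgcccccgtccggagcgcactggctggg

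The seed of miR-210-3p pairs with ACGCACA, and these letters were found in the 3′ untranslated region of 0 of the 10 members, against 3.48% of the 20858 such regions searched. The transcript of P2rx4 held them once, outside that region. Promoter windows of 300 bases (250 before to 50 after the start) were searched on both strands for TTC and GAA with 4 bases between them, a palindrome of the STAT6 type, for TTCNNNGAA, which other STAT factors prefer, and for ACGTG, the core of the hypoxia response element. Of 21770 windows of protein-coding genes, 6.81% held the first, 8.81% TTCNNNGAA and 20.7% ACGTG. Adora2a held TTCAGAGAA, which began 123 bases before the start, and P2ry6 held TTCCCAGGAA 87 bases before it. P2ry12 held ACGTG as part of the palindrome CACGTG, which reads the same on both strands, 205 bases before the start, and P2ry14 held it after the start. The windows of the other 6 members had no match, including that of Adora2b, whose bases were 70% G or C. A match is a description of the letters and was not tied to binding of any factor.

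The libraries held between 7930525 and 10167695 counts in total. For Mir210, counts ranged from 1 to 5 over the WT libraries and were 0 in every KO library. All 6 macrophage markers listed were detected in every library, with at least 598 counts (Mertk), and none was called between KO and WT. Upon IL-4, Csf1r and Cd68 were not called, Mertk (-1.33 in WT and -0.90 in KO on the log2 scale) and Lyz2 (-0.38 and -0.37) fell in both genotypes, Adgre1 fell in KO (-0.28) and Itgam rose in WT (0.62). The markers of IL-4 polarization Arg1, Retnla, Mrc1 and Chil3 were called higher in M2 in both genotypes. Arg1 was also called higher in KO than in WT in M0 (0.85 on the log2 scale, with means of 667 and 372 normalized counts). Mrc1 was not called there, and Retnla and Chil3 had too few counts in M0 to be tested. In M2 these markers were not called between the genotypes. The T cell gene Cd3e, the neutrophil gene Ly6g, the platelet gene Gp1bb and the microglial gene Sall1 had 0 counts in all 12 libraries, and no mast cell or basophil marker exceeded 1 count. Erythroid markers reached 25 counts and fibroblast markers 16. Of the dendritic cell markers, Flt3 had at most 2 counts, while Zbtb46 rose in M2 in both genotypes to means of 135 (WT) and 99.7 (KO) normalized counts. The part of such cells in the results was not tested. Within groups, library pairs differed by 1.89 to 9.85 times what counting alone gives (chi-square per degree of freedom), with the highest values in M0 for pairs that include library 2. Per the labels every group is its own batch, and the effects of batch and group cannot be told apart. In bulk RNA, fewer cells with a transcript and less of it per cell cannot be told apart either.

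Coordinates of genes are those of GRCm39. Levels were compared between members as RPKM, read counts scaled to library total and to the length of all exons of the gene, a choice that decides part of the order. In WT M0, Entpd1 had the highest level at 47.9 ± 3.7 RPKM (SD, n = 3), followed by P2ry6, whose UDP receptor drives phagocytosis in microglia, at 39.4 ± 1.2 and P2rx4 at 31.2 ± 1.8. P2rx7 followed at 19.1 ± 1.3 RPKM, P2ry12 at 13.9 ± 0.6 and Adora2b at 5.86 ± 1.06. P2ry14 and P2ry2 lay at 1.91 ± 0.36 and 1.53 ± 0.08 RPKM, and their ranges over the libraries overlapped. Adora3 at 0.278 ± 0.096 RPKM and Adora2a at 0.042 ± 0.020 RPKM were the lowest. Neighbours in this order did not overlap, other than P2ry14 and P2ry2.

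After IL-4 the order of the levels changed. In WT M2 P2ry6 stood first at 41.8 ± 1.6 RPKM, and Entpd1 at 36.6 ± 3.4 overlapped with P2rx4 at 32.3 ± 1.3. Adora2b moved above P2rx7, at 21.7 ± 0.6 against 17.1 ± 0.8 RPKM, and P2ry12 dropped to 2.50 ± 0.43 RPKM. Adora2a and Adora3 overlapped at 0.480 ± 0.121 and 0.439 ± 0.047 RPKM. In KO M2 Entpd1 at 45.3 ± 2.8 and P2ry6 at 42.6 ± 1.2 RPKM overlapped at the top. With the length of the longest transcript in place of all exons, the mean moved by more than 1 SD in 35 of the 40 combinations of gene and group, and the order turned in places. In WT M0 P2rx4 (62.3 RPKM) and P2ry6 (61.9) then stood above Entpd1 (59.2). In WT M2 P2rx7 (33.6) stayed above Adora2b (21.7), and Adora2a stood above Adora3 with either length. In KO M2 P2ry6 (66.9) and P2rx4 (60.1) stood above Entpd1 (56.0). The changes of a gene between groups do not depend on its length.

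**Figure D1:**
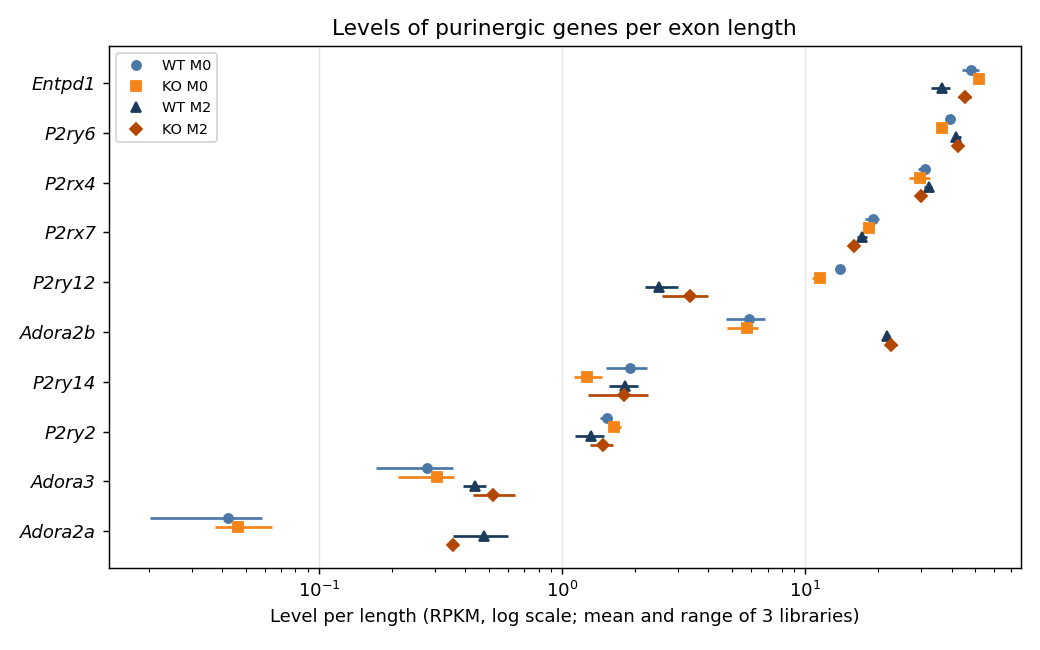
Level of the 10 genes in RPKM on a log scale, with the mean of 3 libraries as a symbol and their range as a line, for WT M0, KO M0, WT M2 and KO M2. Entpd1, P2ry6 and P2rx4 lie at 26.8 RPKM or more in every library, P2ry12 lies to the left and Adora2b to the right in M2, and Adora2a and Adora3 stay under 1 RPKM.

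The first comparison asks which of these genes change when macrophages are polarized with IL-4. In WT macrophages the adenosine receptor genes Adora2a and Adora2b rose and P2ry12 and Entpd1 fell, 4 of the 10 members tested, where 35.4% of the 14266 genes tested were called (2624 higher and 2430 lower). In KO macrophages 4 of 10 were called as well, against 28.4% of 14331 genes (2054 higher and 2011 lower). Adora2b, P2ry6 and P2ry14 rose and P2ry12 fell. Without overlap between M0 and M2 were 6 members in WT, against 56.9% of all genes, and 7 in KO, against 46.3%. The median log2 fold change of the members was 0.03 in WT and 0.16 in KO, beside -0.0012 and -0.0078 over all genes tested. A gene was called at a Benjamini-Hochberg (BH) adjusted p under 0.05 with edgeR's quasi-likelihood test and a fold change above 1.2, and here only protein-coding genes whose normalized counts averaged over 10 qualified.

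P2ry12 had the largest decrease among the members in both genotypes. It lies on the minus strand of chromosome 3 (chr3:59123682-59170429). In normalized counts, which are TMM-scaled over all 12 libraries, WT M0 held 410.1, 373 and 415 and WT M2 held 68.3, 87.8 and 65.0. In KO the values were 347, 299 and 345 in M0 and 103, 117 and 76.0 in M2. Every M2 library lay below every M0 library of either genotype. The log2 fold change was -2.42 (standard error (SE) 0.12, adjusted p = 1.6e-09, edgeR with BH adjustment) in WT and -1.73 (SE 0.14, adjusted p = 9.0e-07, same test) in KO. Leaving out any 1 of the 12 libraries kept the call, with log2 fold changes from -2.57 to -2.34 in WT and from -1.89 to -1.59 in KO. Med12l, which overlaps P2ry12 on the opposite strand, had 38 to 58 counts in each M0 library and 5 to 8 in each M2 library. The counting used strand, and the part of Med12l in the counts of P2ry12 was not tested. The summed platelet and megakaryocyte markers lay between 34.0 and 88.4 normalized counts in M0 and between 88.8 and 102 in M2. Most of this sum was Ppbp, with means of 25.8 in WT M0, 60.5 in KO M0, 88.0 in WT M2 and 81.0 in KO M2. Itga2b went the other way, from 14.1 to 11.2 in WT and from 12.7 to 9.44 in KO, and was not called. Gp9 had at most 1 count in any library and Gp1bb had 0. Of the microglial markers that are often read together with P2ry12, Tmem119 rose in M2, from 58.3 to 247 normalized counts in WT (mean, n = 3), and Sall1 was at 0.

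The adenosine receptor genes moved the other way. Adora2b (chr11:62139804-62157279) encodes the low-affinity, Gs-coupled adenosine receptor. Its normalized counts were 103, 76.7 and 113 in the WT M0 libraries and 359, 366 and 383 in those of WT M2. In KO it had 106, 77.6 and 104 in M0 and 374, 403 and 378 in M2. All 6 M2 libraries thus lay above all 6 M0 libraries, and library 2 was the lowest in both M0 groups. The log2 fold change was 1.93 (SE 0.12, adjusted p = 2.0e-08, same test) in WT and 2.01 (SE 0.12, adjusted p = 5.6e-08) in KO, and the call remained whichever library was left out.

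Adora2a (chr10:75152560-75170628), which encodes the high-affinity Gs-coupled adenosine receptor, was near the limit of detection in M0, with 2, 1 and 3 raw counts in WT and 3, 2 and 2 in KO. In M2 it had 27, 18 and 21 raw counts in WT and 15, 19 and 15 in KO. The ratio of M2 to M0 on the summed counts, corrected for library size, was 11.6 in WT (95% exact interval 5.04 to 32.7) and 8.04 in KO (3.62 to 21.0), intervals that cover counting error only. The adjusted p was 2.0e-05 in WT and 8.5e-05 in KO (same test). Adora2a was called in WT but not in KO, where its average of 9.86 normalized counts fell under the limit of 10. This limit also ended the call in WT when library 1 of WT M2 was left out, and without any 1 of the KO M0 libraries or in a fit of all 12 libraries the gene was called in KO as well. Per exon length Adora2b exceeded Adora2a by 99.5 to 233 times in the M0 libraries and by 35.4 to 63.8 times in the M2 libraries. With the length of the longest transcript the gap was smaller, with means of 5.86 against 0.073 RPKM in WT M0 and 21.7 against 0.829 in WT M2.

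Adora3 (chr3:105778174-105816242), which encodes a Gi-coupled receptor, stayed low. It had 5.61 to 11.9 normalized counts in WT M0, 6.90 to 12.1 in KO M0, 13.4 to 16.8 in WT M2 and 14.7 to 21.8 in KO M2. Every M2 library lay above every M0 library, yet the log2 fold changes of 0.69 (SE 0.33, adjusted p = 0.11, same test) in WT and 0.81 (SE 0.33, adjusted p = 0.079) in KO did not pass. Adora3 shares exons on the same strand with Tmigd3 and Gm53046, and 26.8% of its 50-base stretches occur in Gm53046 too. Over the 12 libraries Tmigd3 had 1 count in total and Gm53046 had 0. Reads there could still be counted on no gene, which was not tested, so the level of Adora3 is uncertain.

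For Entpd1 (chr19:40600810-40731585) the WT M0 libraries held 2878, 3231 and 3049 normalized counts and the WT M2 libraries 2464, 2557 and 2166, without overlap. Its log2 fold change in WT was -0.34 (SE 0.08, adjusted p = 0.0020, same test), and leaving out any 1 library kept the call (-0.39 to -0.27). In KO it held 3287, 3221 and 3370.2 in M0 and 2783, 3122 and 2993 in M2. These groups did not overlap either, but the log2 fold change of -0.15 (SE 0.07, adjusted p = 0.14, same test) did not pass. That one value passed and the other did not is no test of a difference, which the interaction gives.

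The changes of the remaining P2Y genes were smaller. P2ry6 lies on the minus strand of chromosome 7 (chr7:100585308-100624173), next to P2ry2. For P2ry6 the WT libraries held 2267, 2304 and 2339 normalized counts in M0 and 2435, 2605 and 2473 in M2, a log2 fold change of 0.13 (SE 0.06, adjusted p = 0.099, same test). In KO it rose from 2176, 2009 and 2189 to 2639, 2534 and 2481. The log2 fold change there was 0.265 (SE 0.07, adjusted p = 0.014), just over the limit of 0.263, and the call was lost without a filter on low counts (0.258), with a minimum mean count of 50 (0.260), and without library 2 of KO M0 (0.22) or library 1 (0.24) or 2 (0.259) of KO M2.

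P2ry14 (chr3:59021276-59061134) encodes a receptor for UDP-glucose and other UDP-sugars. It had 229, 149.7 and 199 normalized counts in WT M0, 160.1, 186 and 214 in WT M2, 124, 143 and 115 in KO M0 and 233, 190.4 and 132 in KO M2. In WT M0 and M2 overlapped, with a log2 fold change of -0.03 (SE 0.15, adjusted p = 0.88, same test). In KO it rose by 0.54 (SE 0.18, adjusted p = 0.037), although the ranges overlapped. The KO call was lost without library 1 or 3 of KO M0 or library 1 or 2 of KO M2, with adjusted p up to 0.20. Over the 6 fits with 1 library left out the log2 fold change lay between 0.35 and 0.72, so the call is not stable. P2ry14 lies 62.5 kb from P2ry12 on chromosome 3 within the same Med12l region, and unlike P2ry12 it was not called lower in either genotype. P2ry2 (chr7:100640649-100663957), the gene of a receptor for ATP and UTP, lay between 103 and 157 normalized counts in the 12 libraries, and its log2 fold changes of -0.17 in WT and -0.12 in KO did not pass (adjusted p = 0.31 and 0.52, same test).

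Neither P2X channel gene was called in any comparison. P2rx4 (chr5:122845541-122867803) and P2rx7 (chr5:122781942-122830400) lie 15.1 kb apart on the plus strand of chromosome 5. P2rx4 ranged from 1877 to 2372 normalized counts over all libraries, with log2 fold changes of 0.09 in WT and 0.06 in KO upon IL-4 (adjusted p = 0.24 and 0.61, same test). P2rx7 ranged from 1384 to 1719, with -0.12 in WT and -0.17 in KO (adjusted p = 0.16 and 0.10). Within a library, the level of P2rx7 per exon length was 0.587 to 0.673 times that of P2rx4 in M0 and 0.499 to 0.552 times in M2. These ratios did not overlap between M0 and M2.

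**Figure D2:**
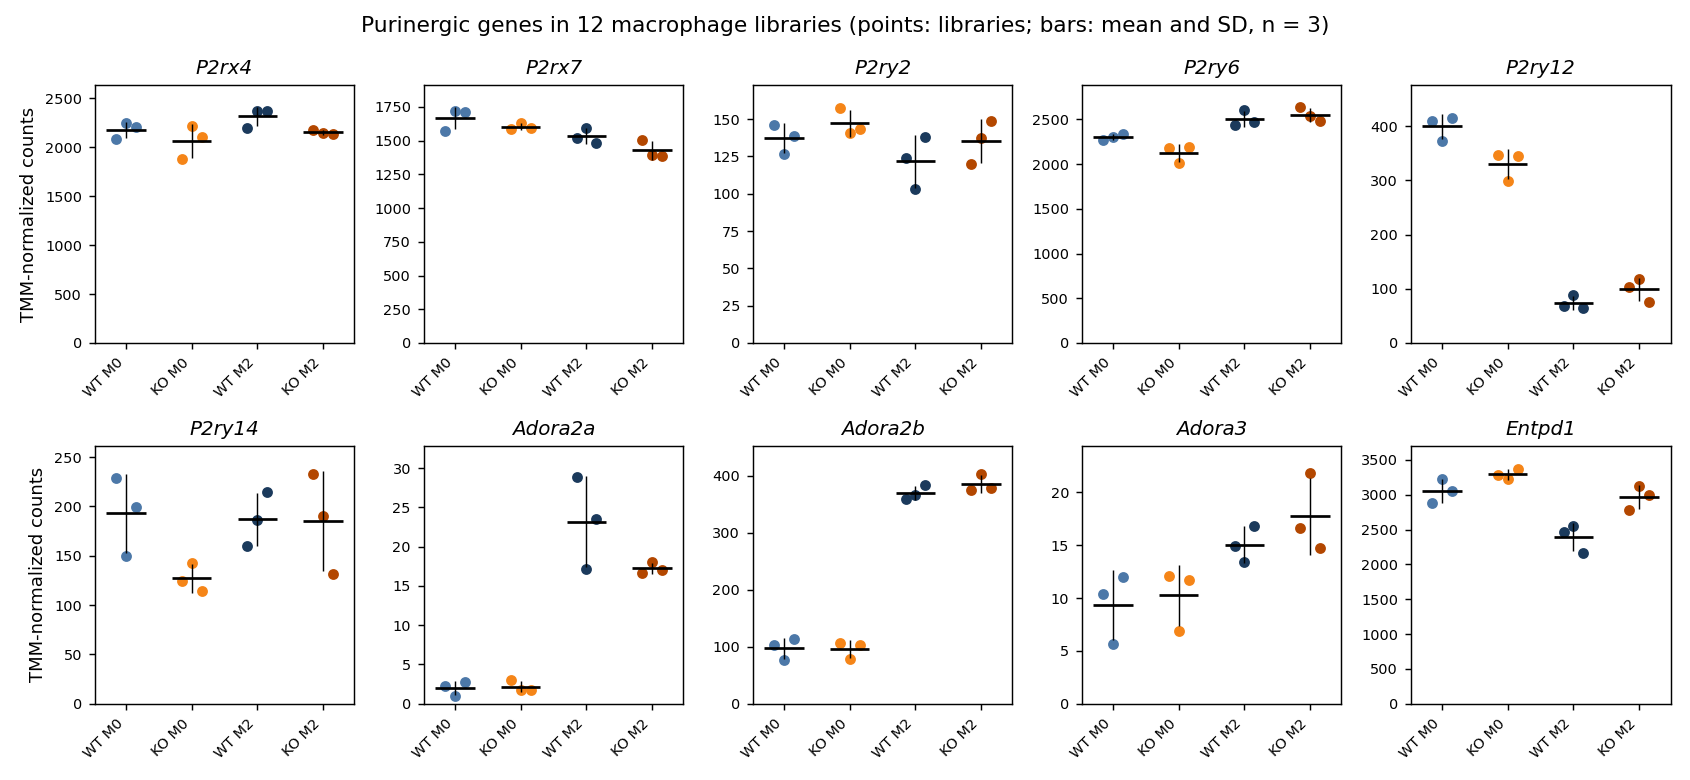
Normalized counts of each member in the 12 libraries, as points, with the mean and SD of the 3 libraries of WT M0, KO M0, WT M2 and KO M2. Each vertical axis starts at 0. P2ry12 is at 299 to 415 in M0 and 65.0 to 117 in M2, Adora2b at 76.7 to 113 in M0 and 359 to 403 in M2, and the channel genes P2rx4 and P2rx7 stay within 1877 to 2372 and 1384 to 1719.

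The second comparison asks what loss of miR-210 does in resting macrophages. In M0, 0 of the 9 members tested were called between KO and WT by edgeR, where 0.461% of 14089 genes were called (31 higher and 34 lower), and 0 were called by the DESeq2 Wald test. At an unadjusted p under 0.05 were 2 members, P2ry14 and P2ry12, and 1410 of the 14089 genes. The groups did not overlap in 3 members, P2ry6, P2ry12 and P2ry14, against 14.4% of all genes tested, and in each of them KO was the lower. The median log2 fold change of the 9 members was -0.06, beside 0.00050 over all genes. Adora2a had too few counts in M0 to be tested.

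P2ry14 showed the largest difference in M0. From the library values given with its IL-4 response, the KO M0 mean of 127 ± 14.5 normalized counts compares with 193 ± 40.2 in WT M0 (SD, n = 3 each). The log2 fold change was -0.59 (SE 0.16, adjusted p = 0.18, edgeR with BH adjustment), which did not pass. It did pass without a filter on low counts (adjusted p = 0.0040) and without library 2 of WT M0 (adjusted p = 0.021), the lowest of its group. P2ry12 was at 330.2 ± 26.9 in KO M0 and 399.6 ± 23.0 in WT M0 (SD, n = 3 each), with a log2 fold change of -0.28 (SE 0.10, adjusted p = 0.32, same test). P2ry6 was at 2125 ± 101 and 2303 ± 35.9 (SD, n = 3 each), with -0.12 (SE 0.08, adjusted p = 0.69). The other 6 members tested had log2 fold changes between -0.08 (P2rx4) and 0.13 (Adora3), with adjusted p of 0.72 or more. P2ry2 and P2ry6 lie on chromosome 7, as does Mir210, at a distance of 40.1 and 40.2 Mb from it.

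The third comparison asks the same of IL-4 polarized macrophages. Entpd1 was called higher in KO M2, the 1 member called of 10 tested, where 0.98% of 13980 genes were called (57 higher and 80 lower). The groups did not overlap in 2 members, Entpd1 and P2rx4, against 16.0% of all genes. The median log2 fold change of the members was 0.05, beside 0.0020 over all genes.

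Entpd1 had 2783, 3122 and 2993 normalized counts in KO M2 and 2464, 2557 and 2166 in WT M2, so each KO library was above each WT library. Its log2 fold change was 0.31 (SE 0.07, adjusted p = 0.034, edgeR with BH adjustment), a fold change of 1.24. The DESeq2 Wald test called it too (adjusted p = 0.0072). The call was lost in a fit of all 12 libraries (adjusted p = 0.11), with a minimum mean count of 50 (adjusted p = 0.054), and without library 1 (0.081) or 3 (0.17) of WT M2 or library 1 (0.051) or 2 (0.23) of KO M2. In M0 the same difference was 0.11 (SE 0.08, adjusted p = 0.72), with KO ranging from 3221 to 3370.2 and WT from 2878 to 3231.

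P2ry12 was at 98.9 ± 21.1 normalized counts in KO M2 and 73.7 ± 12.3 in WT M2 (SD, n = 3 each), with overlap between the groups. Its log2 fold change of 0.43 (SE 0.17, adjusted p = 0.36, same test) did not pass and was opposite in sign to that in M0. P2rx4 was lower in each KO M2 library, at 2129.9 to 2178 against 2199 to 2372, but its log2 fold change of -0.10 (SE 0.05, adjusted p = 0.55) did not pass. P2ry14 was at 185 ± 51.0 and 187 ± 27.0 (SD, n = 3 each), with a log2 fold change of -0.0038 (adjusted p = 1.00). Adora2a was at 17.2 ± 0.7 in KO and 23.2 ± 5.8 in WT (SD, n = 3 each), with overlap and a log2 fold change of -0.41 (SE 0.27, adjusted p = 0.65). The other 5 members had log2 fold changes between -0.10 (P2rx7) and 0.26 (Adora3), with adjusted p of 0.60 or more.

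**Figure D3:**
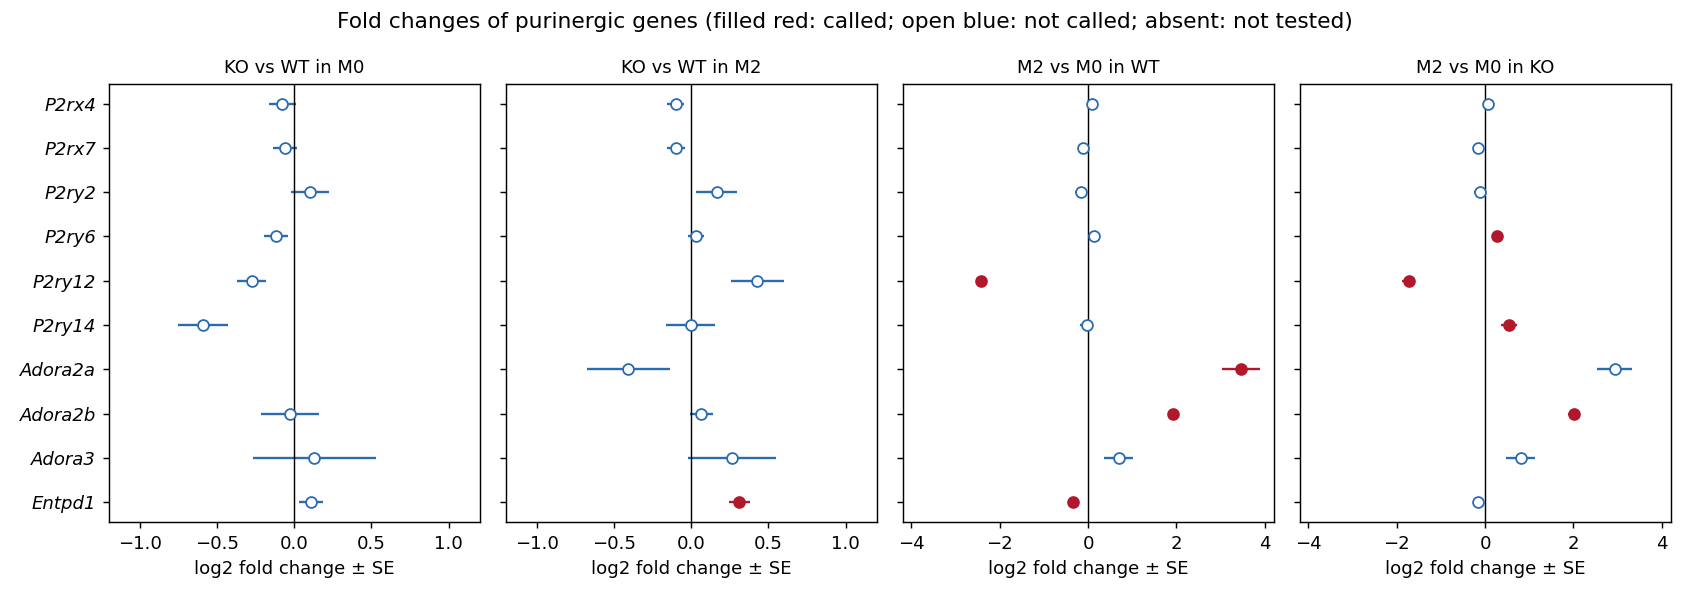
Log2 fold change of each member with its SE in the 4 comparisons, with called genes filled and the others open. The horizontal scale is narrower in the panels of KO against WT. Entpd1 is the 1 called member there, at 0.31 in M2, while Adora2a, Adora2b and P2ry12 lie far from 0 in both polarization panels.

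Whether the response to IL-4 differed between the genotypes was tested as an interaction over all 12 libraries, where a positive value means that KO rose more or fell less than WT. It was called in 0 of the 10 members and in 0 of 14825 genes (0.0%) with edgeR, while 1327 genes had an unadjusted p under 0.05 and the DESeq2 Wald test called 83 genes, none of them a member. P2ry12 had the smallest p of the members, with a difference of 0.70 on the log2 scale (SE 0.20, unadjusted p = 0.0028, adjusted p = 0.24, edgeR with BH adjustment). Over the 12 fits without 1 library this difference lay between 0.55 and 0.85, with adjusted p between 0.14 and 0.53, and without a filter on low counts the adjusted p was 0.024. P2ry14 had a difference of 0.58 (SE 0.26, adjusted p = 0.53) and Entpd1 of 0.20 (SE 0.10, adjusted p = 0.60). The median of the 10 members was 0.11, beside -0.0016 over all genes. The comparisons share libraries: each M0 or M2 group enters one comparison of genotypes, one of polarization and the interaction, so their values are not independent of each other.

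Of the other genes that make, release, degrade or sense nucleotides and adenosine, 32 were listed by role. Between KO and WT, 0 of the 20 tested in M0 and 0 of the 19 tested in M2 were called by edgeR. At an unadjusted p under 0.05 were 5 of them in M0 and 2 in M2. Over all genes these were 1410 of 14089 in M0 and 1498 of 13980 in M2. In M0 the listed genes were Gja1 (-0.57 on the log2 scale, adjusted p = 0.34, same test) and Panx1 (0.47, adjusted p = 0.10), both for nucleotide release. With them were the nucleoside transporter genes Slc28a2 (-0.44, adjusted p = 0.067), Slc29a1 (0.39, adjusted p = 0.076) and Slc29a3 (-0.32, adjusted p = 0.24). In M2 the listed genes were Enpp1 (0.37, adjusted p = 0.28) and Slc29a1 (0.16, adjusted p = 0.32). P2rx5 had the largest difference in M2 (-0.71), with an adjusted p of 0.52. Upon IL-4, 3 of 21 tested rose and 8 fell in WT, where 35.4% of all genes were called, and 2 of 20 rose and 5 fell in KO, where 28.4% were. The median log2 fold change of those tested was -0.08 in WT and -0.07 in KO, beside -0.0012 and -0.0078 over all genes. The interaction was called in 0 of 21.

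Among the other nucleotide receptors, the ADP receptor genes P2ry1 and P2ry13 moved in opposite directions. In this and the next paragraph, normalized counts are TMM-scaled over the 6 libraries of each pair. P2ry1, whose receptor couples to Gq, rose in WT from 75.1 ± 6.8 to 632 ± 24.8 normalized counts (SD, n = 3 each; log2 fold change 3.08, adjusted p = 2.5e-11, same test) and from 84.3 ± 11.4 to 668 ± 66.3 in KO (2.98, adjusted p = 1.8e-09). P2ry13, Gi-coupled like P2ry12, fell from 133 ± 8.5 to 16.2 ± 3.8 in WT (-3.00, adjusted p = 2.1e-08) and from 117 ± 20.9 to 16.9 ± 6.8 in KO (-2.76, adjusted p = 3.2e-06). Thus both Gi-coupled ADP receptor genes, P2ry12 and P2ry13, were lower in M2 in each genotype. P2rx5 went from a mean of 0.98 to 15.6 normalized counts in WT and stayed under the limit on the average, and P2rx3 was not called. P2rx1, P2rx2, P2rx6 and P2ry4 did not exceed 8 counts in any library, and Adora1, the remaining adenosine receptor gene, did not exceed 1.

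Entpd1 was the one cell-surface nucleoside triphosphate diphosphohydrolase gene with more than a trace of counts, since Entpd2, Entpd3 and Entpd8 did not exceed 3 counts in any library. Nt5e, the gene of CD73, had at most 26 counts and was not called in any comparison, and Alpl had 0. Enpp1, which encodes an enzyme that splits ATP into AMP and pyrophosphate, fell in WT by 0.59 on the log2 scale, to 91.4 ± 8.0 normalized counts from 139 ± 15.1 (SD, n = 3 each, adjusted p = 0.0021, same test), and had -0.29 in KO (adjusted p = 0.14). Entpd6, the gene of an intracellular nucleoside diphosphatase, fell by 0.42 in WT and 0.34 in KO on the log2 scale (adjusted p = 0.0039 and 0.042).

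In adenosine metabolism and transport, Pnp, the gene of purine nucleoside phosphorylase, fell in both genotypes, by 0.80 in WT and 0.65 in KO on the log2 scale (adjusted p = 2.6e-06 and 2.6e-04, same test). In WT the transporter gene Slc29a1 (0.36) and Ahcy (0.35), the gene of adenosylhomocysteinase, rose, and the transporter genes Slc28a2 (-0.48) and Slc29a3 (-0.35) fell. In KO these 4 were not called, with log2 fold changes of 0.13, 0.33, -0.15 and 0.04. Ada, the gene of adenosine deaminase, fell in KO (-1.09, adjusted p = 0.024) and had -0.84 in WT (adjusted p = 0.073), at no more than 21 counts in any library.

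Of the nucleotide release genes, Panx1, which encodes the pannexin channel through which ATP leaves cells, fell in both genotypes. Its log2 fold change was -0.35 in WT (adjusted p = 0.037, same test) and -0.92 in KO (adjusted p = 7.4e-06). The ranges of M0 and M2 overlapped in WT but not in KO. Slc17a9, the vesicular nucleotide transporter gene, fell in WT (-0.51, adjusted p = 0.011) and had -0.42 in KO (adjusted p = 0.063). Gja1, the gene of connexin 43, rose in KO (0.85, adjusted p = 0.0013) and had 0.29 in WT (adjusted p = 0.17). Scaled over all 12 libraries, Panx1 averaged 253 normalized counts in WT M0 and 348 in KO M0, against 197 and 183 in M2. Gja1 averaged 81.2 in WT M0 and 55.0 in KO M0, against 99.6 in both M2 groups.

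**Figure D4:**
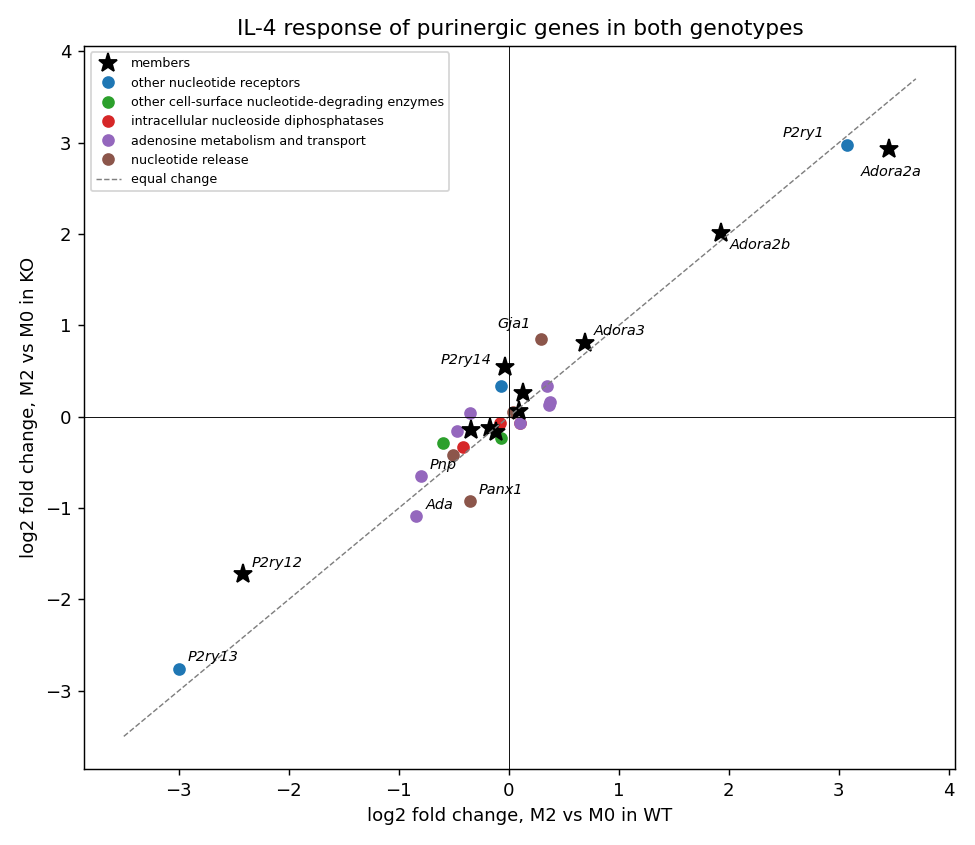
Log2 fold change upon IL-4 in KO (vertical) against WT (horizontal) for the 10 members (stars) and the listed genes tested in both genotypes (circles, colored by role), with a dashed line of equal change. P2ry1, Adora2a and Adora2b lie at the upper right, P2ry12 and P2ry13 at the lower left, and most other genes lie within 1 of 0 on both axes.

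The protein-coding gene whose log2 level followed that of each member most closely over the 12 libraries was looked up among 11382 genes, as a description. For P2ry12 it was Arhgap19 (Pearson r = 0.994), for Adora2b Cd300lb (0.997) and for Adora2a Mcub (0.993). For P2ry6 it was Ccdc122 (0.972), for Adora3 Psmd6 (0.970), for Entpd1 Smpd5 (0.933) and for P2rx7 Zswim8 (0.932). For P2rx4 it was Setdb1 (0.908), for P2ry14 Ccl8 (0.877) and for P2ry2 Slc44a2 (0.865). The 12 points fall into M0 and M2 libraries, so that any gene with a similar step upon IL-4 gives a high value.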

How the data were processed

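RNA of 12 cultures was sequenced after ribosomal RNA depletion, in stranded paired-end mode. Reads were trimmed by the authors (FastQC 0.12.0, Trimmomatic 0.39), cleared of duplicates, aligned to GRCm39 (STAR 2.7.11) and counted per gene and strand (featureCounts 2.0.3). The authors deposited these raw counts per gene in a table for each pair of groups, and a second set of tables whose values are a signal, each count over its library's size factor, which was set for each pair with DESeq2 1.44.0. Counts were used for all tests and the signal as an alternative for levels. Removal of duplicates can lower the counts of abundant genes. Columns were assigned to groups by their names, and the numbers 1 to 3 were not tied to samples.

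Symbols came from GENCODE M39, which matched 56323 of 56941 identifiers. Each pair was tested on its 6 libraries with edgeR 4.0.16 (R 4.3.3; TMM, filterByExpr, quasi-likelihood test, BH adjustment over all genes tested), and the interaction on all 12. A call needed an adjusted p under 0.05 and an absolute log2 fold change over 0.263. The interaction had no limit on size. SE is the absolute log2 fold change divided by the square root of F. The scripts were tested on simulated data. Alternatives were the DESeq2 1.42.0 Wald test, RLE size factors, no or a stricter filter, no fold limit, a fit of all 12 libraries, a block by column number and each library left out. All members were named, with listed pathway genes that were called or had the largest changes. The members and lists were chosen with earlier results of these data known. Protein sequences were not used here.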

Additional observations from a re-analysis of the deposited data

How the results depend on the processing

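In M0, the number of members called between KO and WT went from 0 to 1 (P2ry14, lower) without a filter on low counts, and lay between 0 and 1 with 1 library left out. In M2 it went from 1 to 0 in the fit of all 12 libraries and with a minimum mean count of 50, and lay between 0 and 1 with 1 library left out. For polarization it lay between 3 and 4 in WT and between 2 and 4 in KO with 1 library left out. In KO it rose from 4 to 5 in the fit of all 12 libraries. It was 3 in KO without a filter on low counts, and 3 in both genotypes with a minimum mean count of 50. The interaction gave 1 member (P2ry12) without the filter and 0 in every fit with 1 library left out. The column number used as a replicate block left the number of members called in each of the 5 comparisons at 0, 1, 4, 4 and 0. Over all genes the block raised the calls between KO and WT from 31 higher and 34 lower to 132 and 152 in M0, and from 57 and 80 to 98 and 191 in M2. Correlations of the deviations of same-numbered libraries were all positive between KO and WT in M0 (0.056 to 0.48), where 3 of 6 libraries correlated best with their own number, and ranged from -0.20 to 0.19 in M2 and from -0.45 to 0.12 between M0 and M2. The samples share only a number.

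Signs reversed only in fits with 1 library left out, and for uncalled members. Between KO and WT in M0, Adora2b ranged from -0.17 to 0.11 and Adora3 from -0.13 to 0.38, and in M2 P2ry14 from -0.19 to 0.18. Upon IL-4, P2ry14 in WT ranged from -0.19 to 0.10 and P2rx4 in KO from -0.0058 to 0.11. The interaction ranged from -0.094 to 0.020 for P2rx4, -0.062 to 0.15 for P2ry2, -0.053 to 0.23 for Adora2b and -0.12 to 0.39 for Adora3. Groups had 3 libraries, and counts were at most 27 for Adora2a and 23 for Adora3. Differences between KO and WT of the size seen in these genes did not pass. The larger change of Adora2a upon IL-4 was called in WT. In KO it had an adjusted p of 8.5e-05 (edgeR with BH adjustment) but an average count under the limit of 10.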
